A study of Mus musculus with 9 samples.

Results

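The genes described here are the CXC chemokine ligands of the neutrophil receptor CXCR2, their close relatives in the same gene cluster, and the receptors themselves. They were chosen by name, with earlier results of these data known: Cxcl1, Cxcl2, Cxcl3, Cxcl5, Ppbp, Pf4, Cxcl15, Cxcr1 and Cxcr2. All 9 were measured, each by 1 feature, among 19505 named genes. The mice were C57BL/6J and 8 weeks old; their back skin was depilated and received 5% imiquimod cream daily for 7 days, and its RNA was measured on Affymetrix arrays. Imiquimod is a Toll-like receptor agonist that causes a psoriasis-like dermatitis in mice. In the stretch group (n = 5) a traction device glued to the skin had been elongated by 10 mm on the first day, and in the no-stretch group (n = 4) the skin was not stretched. Both groups received imiquimod, no array without it was analysed here, and it is not stated whether a device was also glued to non-stretched skin. Nothing in the labels ties samples to separate mice, so the p-values reflect only how much these samples vary, which may be technical.

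CXCR2 is a G-protein-coupled receptor through which neutrophils sense a family of small chemokines that carry a glutamate-leucine-arginine motif before their first cysteines. Keratinocytes, fibroblasts, endothelium and myeloid cells make these ligands under IL-1, TNF, IL-17 and Toll-like receptor signals, largely through NF-kB. In inflamed skin the ligands draw neutrophils out of the vessels and into the epidermis.

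In mice the 7 chemokine genes lie side by side on chromosome 5, in the order Cxcl5, Ppbp, Pf4, Cxcl3, Cxcl15, Cxcl1 and Cxcl2, whereas Cxcr1 and Cxcr2 lie on chromosome 1. The 110 bases before the RefSeq start of 5 of the chemokine genes are shown because Cxcl1, Cxcl2 and Cxcl3 were among the genes with the largest differences and share a stretch there. Cxcl15, whose negative difference was not called (limma adjusted p = 0.33), and Ppbp are shown for comparison. Both were low on this scale. All are on the plus strand of GRCm38.p6, 5′ to 3′, and capitals mark the 10 letters GGGAATTTCC.
Cxcl1, chr5:90891135-90891244: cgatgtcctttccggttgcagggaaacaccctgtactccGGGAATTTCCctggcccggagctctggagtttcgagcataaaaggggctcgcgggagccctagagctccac
Cxcl2, chr5:90903789-90903898: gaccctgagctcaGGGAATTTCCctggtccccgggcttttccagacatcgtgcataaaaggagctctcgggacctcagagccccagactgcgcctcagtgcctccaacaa
Cxcl3, chr5:90785991-90786100: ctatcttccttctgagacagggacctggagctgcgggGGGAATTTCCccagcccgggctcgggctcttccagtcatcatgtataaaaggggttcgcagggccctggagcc
Ppbp, chr5:90768408-90768517: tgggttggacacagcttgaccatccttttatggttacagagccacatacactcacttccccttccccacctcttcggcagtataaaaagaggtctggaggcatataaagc
Cxcl15, chr5:90794424-90794533: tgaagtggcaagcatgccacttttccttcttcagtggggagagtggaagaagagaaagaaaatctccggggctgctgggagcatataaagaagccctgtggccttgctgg

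The capital letters, chosen after the sequences were seen, begin 71 bases before the start of Cxcl1, 97 before that of Cxcl2 and 73 before that of Cxcl3. Searched on both strands of the 250 bases before each start, they occurred in 28 of 32851 RefSeq windows (0.0852%). They match the NF-kB consensus, which was found in 3.90% of the windows and in the same 3 of the 8 members in the table. Downstream of them, each of the 3 windows holds ATAAAAGG, a TATA-like stretch that begins 34 bases before the start of Cxcl1, 57 before that of Cxcl2 and 29 before that of Cxcl3. It was taken as the longest stretch that these 3 windows share there, so the comparison genes had no part in its choice. On either strand it occurred in 1.54% of all windows, that of Ppbp among them, where it reads on the opposite strand. The printed sequences of Ppbp and Cxcl15 hold other TATA-like letters on the plus strand, tataaaa and tataaag, which were not searched for. The bases from the first letter of one stretch to that of the other numbered 37, 40 and 44. Over the 110 bases, a global alignment was 63.9% identical between Cxcl1 and Cxcl3, 54.6% between Cxcl1 and Cxcl2 and 52.2% between Cxcl2 and Cxcl3. The pairs that involve Ppbp or Cxcl15 lay between 44.5% and 53.8%. These matches describe the letters only. Cxcl5 was named but not matched.

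Cxcl2 (MIP-2), a neutrophil chemoattractant of macrophages, neutrophils and keratinocytes, had the largest positive difference of all 19505 genes. Its log2 values were 11.16, 14.10, 9.34, 14.55 and 12.91 in stretch replicates 1 to 5, and 6.38, 7.36, 4.96 and 9.07 in no-stretch replicates 1 to 4. The groups did not overlap, but only 0.27 separated stretch replicate 3 from no-stretch replicate 4. The means were 12.41 ± 2.16 (SD, n = 5) and 6.94 ± 1.73 (SD, n = 4), so the log2 change was 5.47 (standard error 1.04), or 44.4-fold, and its 95% confidence interval ran from 3.19 to 7.75. Adjusted over all genes, limma's p was 0.054, just above the threshold of 0.05.

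**Figure D1:**
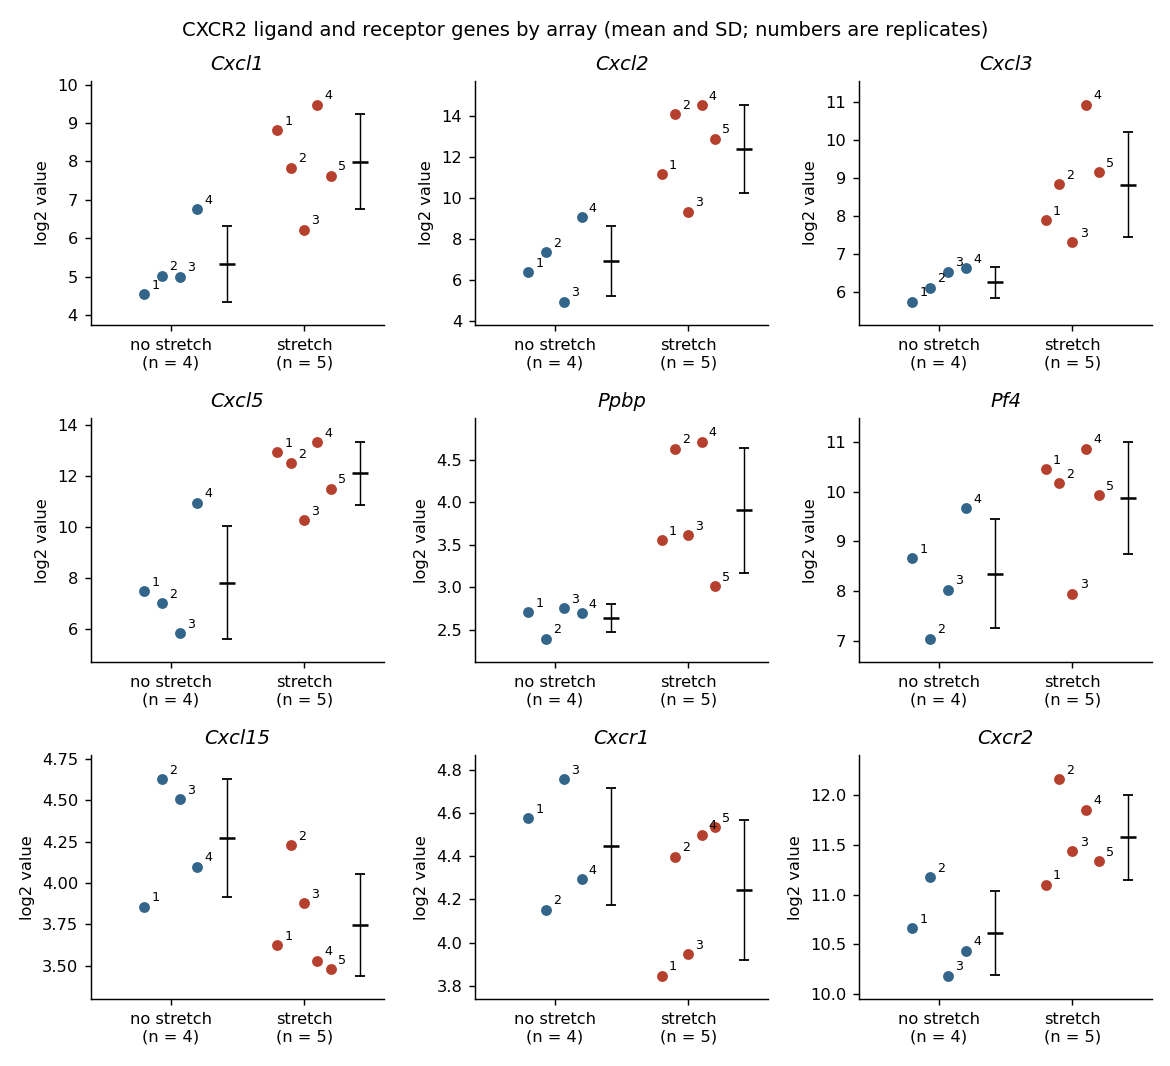
Log2 values of the 9 genes on each array, with no-stretch arrays in blue and stretch arrays in red; numbers beside points are replicate numbers, and the black mark beside each group is its mean with its SD. The vertical axes differ between panels and do not start at 0. Stretch replicate 4 is the highest array for Cxcl1, Cxcl2, Cxcl3, Cxcl5, Ppbp and Pf4.

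Cxcl5 (LIX), a ligand made mainly by epithelial cells, ranked 3 among all genes by positive difference. It was at 12.94, 12.49, 10.26, 13.34 and 11.51 with stretch and at 7.48, 7.00, 5.83 and 10.95 without. Stretch replicate 3 lay below no-stretch replicate 4, so the groups overlapped by that 1 array on each side. The means, 12.11 ± 1.24 (SD, n = 5) and 7.81 ± 2.20 (SD, n = 4), differed by 4.29 with a standard error of 0.90, or 19.6-fold (limma adjusted p = 0.077).

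Cxcl1 (KC), a ligand of keratinocytes and stromal cells, ranked 26 by positive difference. Its log2 values with stretch were 8.81, 7.84, 6.22, 9.48 and 7.62, and without stretch 4.54, 5.02, 5.00 and 6.76. The overlap came from the same pair of arrays as for Cxcl5. The difference of 2.66 had a 95% confidence interval of 1.34 to 3.99, or 6.33-fold (limma adjusted p = 0.094).

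Cxcl3 (Dcip1), a ligand first described in dendritic cells and close in sequence to Cxcl1 and Cxcl2, ranked 30. It was at 7.90, 8.84, 7.31, 10.94 and 9.17 with stretch, and at 5.75, 6.12, 6.54 and 6.64 without. Here the groups did not overlap, and the non-stretched arrays spanned only 0.88 against 3.63 for the stretched ones. The difference was 2.57 (95% confidence interval 1.30 to 3.84), or 5.94-fold (limma adjusted p = 0.094). The confidence intervals of the 4 ligand genes overlapped one another.

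Ppbp, the precursor of the platelet CXCR2 ligand NAP-2, was low on the scale of this table in both groups, where compression of low values by the processing can understate a difference. It read 3.56, 4.63, 3.61, 4.71 and 3.01 with stretch and 2.71, 2.39, 2.76 and 2.69 without, with no overlap. The means were 3.91 ± 0.74 (SD, n = 5) and 2.64 ± 0.16 (SD, n = 4), a log2 change of 1.27 with limma adjusted p = 0.14. No detection calls were used here, so its distance from background is unknown.

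Pf4, platelet factor 4, lacks the glutamate-leucine-arginine motif and is stored in platelets, and myeloid cells can also express it. Its values were 10.45, 10.17, 7.95, 10.86 and 9.92 with stretch and 8.67, 7.05, 8.04 and 9.66 without. Stretch replicate 3 lay below 3 of the 4 non-stretched arrays, while the other stretched arrays lay above all of them. The difference was 1.52 (95% confidence interval 0.22 to 2.82; limma adjusted p = 0.31).

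Markers of platelets and megakaryocytes had mostly small measured differences, in either direction. Of 12 measured markers 4 had a positive difference, with a median log2 change of -0.15, and 0 passed the test. Their mean log2 level ranged from 4.86 to 5.16 with stretch and from 5.08 to 5.20 without. The 2 with the smallest p were Treml1, a receptor of platelet granules, with a log2 change of -0.39 (limma adjusted p = 0.32), and Nfe2, a transcription factor of megakaryocytes, with one of 0.35 (0.37). Several platelet markers were low in both groups, among them Treml1 (mean 3.19 with stretch and 3.58 without), Nfe2 (3.04 and 2.68) and Gp5 (2.68 and 2.71). Compression of low values can understate a difference there, and a change in platelet number was not tested. Monocyte and macrophage markers had 12 of 13 positive differences, a median of 0.46 and again 0 calls. Their mean level ranged from 11.38 to 12.56 with stretch and from 10.91 to 12.04 without, and their part in the Pf4 difference was not tested. Cd14, the lipopolysaccharide co-receptor, had a log2 change of 2.26 (limma adjusted p = 0.13) and Msr1, a scavenger receptor, one of 1.66 (0.22).

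Cxcl15 (lungkine), known mainly from mouse lung epithelium, differed from its neighbours in sign. It was at 3.63, 4.23, 3.88, 3.53 and 3.48 with stretch and at 3.86, 4.62, 4.51 and 4.10 without, and the groups overlapped. The log2 change was -0.52 (95% confidence interval -0.99 to -0.05), with limma adjusted p = 0.33.

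Taken in chromosomal order, 6 of the 7 chemokine genes had positive differences. The 3 nearest measured genes before Cxcl5 had log2 changes of -0.20 (Afm), -0.0033 (Albfm1) and -0.20 (Rassf6). After Cxcl2, the folate enzyme gene Mthfd2l had a change of 0.09 and the EGF receptor ligand gene Ereg one of 0.18. Epgn, another EGF receptor ligand gene, had a change of 1.70 (limma adjusted p = 0.14). None of these 6 neighbours passed the test.

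**Figure D2:**
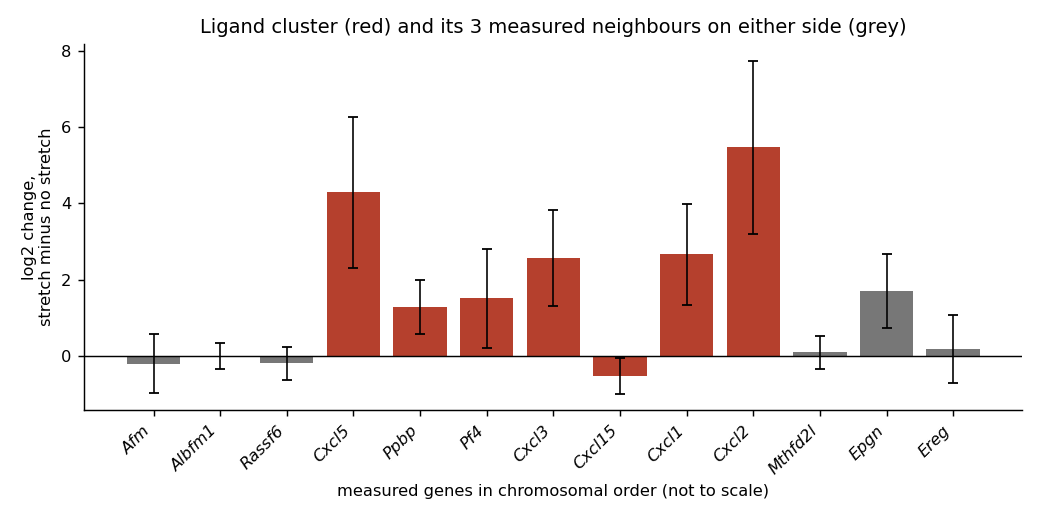
Log2 change of the 7 chemokine genes (red) and the 3 nearest measured genes on each side (grey), in chromosomal order and not to scale; error bars are 95% confidence intervals of the limma fit. The positive differences run from Cxcl5 to Cxcl2 with Cxcl15 below 0, and among the outer genes only the interval of Epgn lies clear of 0.

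Cxcr2 itself, the receptor of neutrophils, had values of 11.10, 12.17, 11.44, 11.85 and 11.34 with stretch and 10.66, 11.18, 10.18 and 10.44 without. Stretch replicate 1 lay 0.076 below no-stretch replicate 2, and the other 4 stretched arrays lay above every non-stretched one. The means were 11.58 ± 0.43 (SD, n = 5) and 10.61 ± 0.42 (SD, n = 4), which differ by 0.96 (95% confidence interval 0.40 to 1.53), or 1.95-fold, with limma adjusted p = 0.15. In whole skin, more cells that express Cxcr2 and more receptor RNA per cell cannot be told apart. Which cells the RNA came from was not tested.

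Cxcr1, the second receptor of the family, was at 3.85, 4.40, 3.95, 4.50 and 4.53 with stretch and at 4.58, 4.15, 4.76 and 4.29 without. The groups overlapped over most of their range. Its log2 change was -0.20 (95% confidence interval -0.65 to 0.25; limma adjusted p = 0.72).

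Neutrophil markers were read beside the receptor. Of 22 measured markers 19 had a positive difference, the median log2 change was 0.76, and 0 passed at 0.05. Their mean log2 level ran from 9.38 to 10.48 with stretch and from 8.21 to 9.06 without, and its part in the Cxcr2 difference was not tested. The changes were uneven, from 4.54 for Retnlg to -0.39 for Mpo. Several markers were low in both groups, where a difference can be understated. Among them were Mpo (mean 3.92 with stretch and 4.31 without), Elane (4.06 and 4.04), Camp (3.12 and 2.98), Ngp (3.26 and 2.87), Ltf (3.49 and 3.33) and Cd177 (4.22 and 4.38). S100a8 and S100a9 had log2 changes of 0.59 and 0.54, and Cd177 and Stfa3 were also negative (-0.16 and -0.052). Stfa3 was high in both groups (mean 17.59 with stretch and 17.64 without). Clec4e, a myeloid lectin receptor also called Mincle, had a log2 change of 3.18 (limma adjusted p = 0.053) and Stfa2l1, a stefin of neutrophils, one of 1.81 (0.062). The marker Ly6g was not matched.

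Over the 9 members, 7 had a positive difference and the median log2 change was 1.52, against -0.0034 over all genes. None passed limma's test at an adjusted p of 0.05, where 0.246% of all genes did (48 of 19505). At an adjusted p of 0.1, 4 members passed, all higher with stretch (Cxcl1, Cxcl2, Cxcl3 and Cxcl5), against 1.08% of all genes. Without adjustment 8 of the 9 had limma p under 0.05 in either direction, against 13.0% of all genes. Among these 8, Cxcl15 was lower with stretch. Cxcl2, Cxcl3 and Ppbp were higher on every stretched array than on any non-stretched one, which held for 2.38% of all genes. The members were chosen with earlier results of these data known. Setting them beside all genes is therefore a description and not independent evidence.

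**Figure D3:**
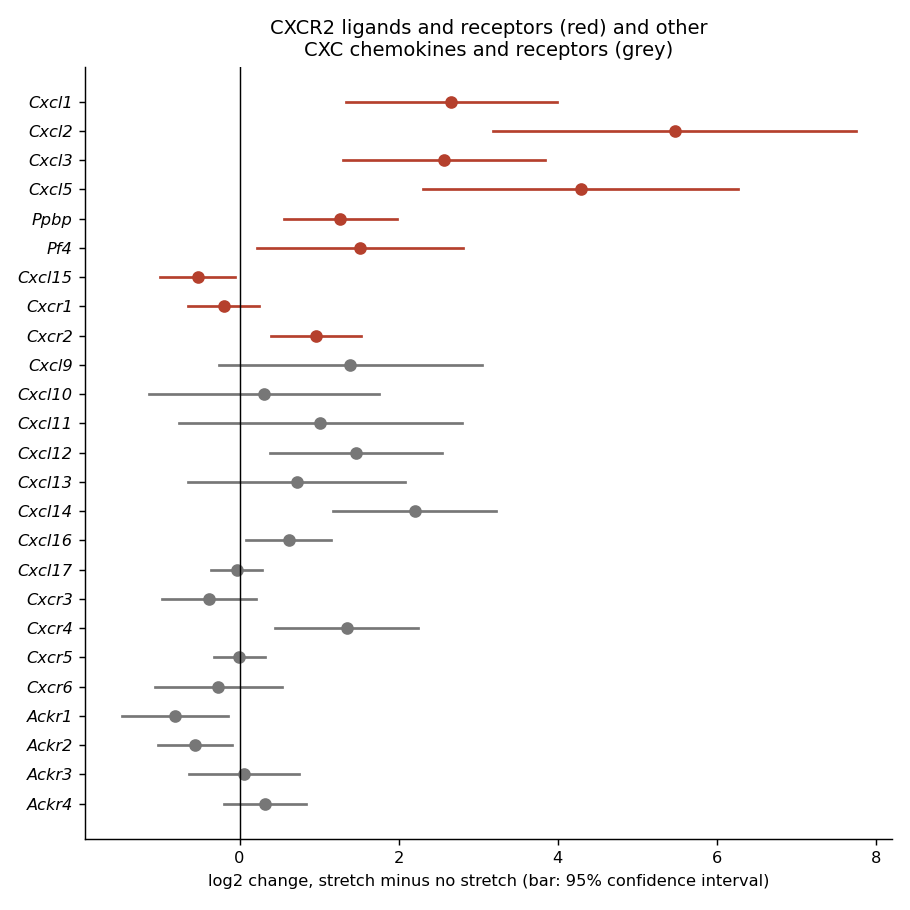
Log2 change (stretch minus no stretch) with its 95% confidence interval for the 9 members (red) and for other CXC chemokines and receptors (grey). Cxcl2 at 5.47 and Cxcl5 at 4.29 lie to the right of the other genes drawn, while Cxcl15 and Cxcr1 lie left of 0.

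Single arrays moved these calls. Without stretch replicate 3, the array with the lowest Cxcl1, Cxcl2, Cxcl3, Cxcl5 and Pf4 of its group, 4 members passed: Cxcl1 (limma adjusted p = 0.026), Cxcl2 (0.012), Cxcl3 (0.033) and Cxcl5 (0.037). In that fit 1.00% of all genes passed (195 of 19505). Without no-stretch replicate 4, the highest of its group for Cxcl1, Cxcl2, Cxcl3, Cxcl5 and Pf4, Cxcl2 (limma adjusted p = 0.043) and Cxcl5 (0.034) passed, as did 0.385% of all genes (75 of 19505). In each of the other 7 fits that left out 1 array, 0 members passed. No-stretch replicate 3, which correlated least with the other arrays (median r = 0.975 across genes, against 0.980 to 0.987), was the lowest array of all for Cxcl2, Cxcl5 and Cxcr2. Without it the log2 change was 4.81 for Cxcl2 and 3.63 for Cxcl5, with limma adjusted p = 0.16 and 0.21, and that of Cxcr2 was 0.82.

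**Figure D4:**
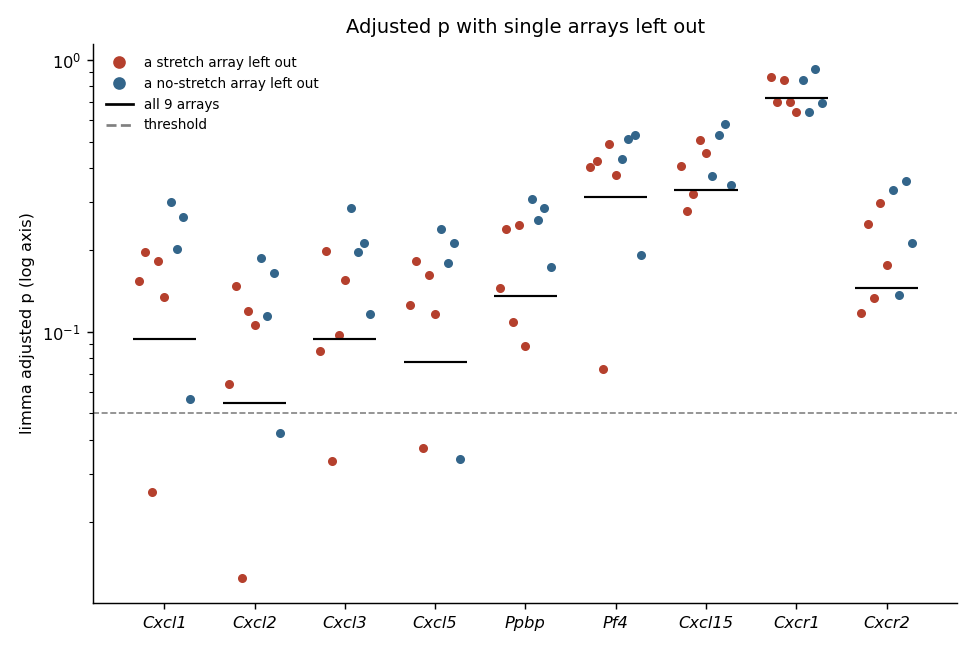
Limma adjusted p (log axis) of each gene in the 9 fits that each leave out 1 array, coloured by the group of the omitted array; black bars are the values with all 9 arrays and the dashed line is the threshold of 0.05. Points under the line occur for Cxcl1, Cxcl2, Cxcl3 and Cxcl5.

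Covariation of the members was measured on deviations from each group's mean, so that the difference between the groups does not enter. Over the 9 arrays, the 6 pairs among Cxcl1, Cxcl2, Cxcl3 and Cxcl5 had Pearson r between 0.41 and 0.85. The closest was Cxcl1 with Cxcl5 (r = 0.85, exact permutation p = 0.0056; Spearman rho = 0.78, exact permutation p = 0.020). Pf4 varied with Cxcl1 (r = 0.83, exact permutation p = 0.012) and with Cxcl5 (r = 0.82, exact permutation p = 0.011), for which rho was 0.75 (exact permutation p = 0.033) and 0.93 (exact permutation p = 0.0017). After Benjamini-Hochberg adjustment over all 36 pairs none passed 0.05: these 3 had an adjusted p of 0.15 by Pearson, and the smallest adjusted p by Spearman was 0.063. Without the 2 arrays farthest from the median of the gene named first, r was 0.74 for Cxcl1 with Cxcl5, 0.71 for Cxcl1 with Pf4 and 0.90 for Cxcl5 with Pf4. Cxcl3 with Cxcl5 was the weakest of the 6 pairs (r = 0.41), and without stretch replicates 3 and 4 its r was 0.011. Cxcr2 followed Cxcl2 loosely (r = 0.54, exact permutation p = 0.17; rho = 0.45, exact permutation p = 0.29) and Cxcl1 hardly (r = -0.015, exact permutation p = 0.97; rho = 0.083, exact permutation p = 0.88). Leaving out 2 arrays in this way changed the sign of r for 9 of the 36 pairs.

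**Figure D5:**
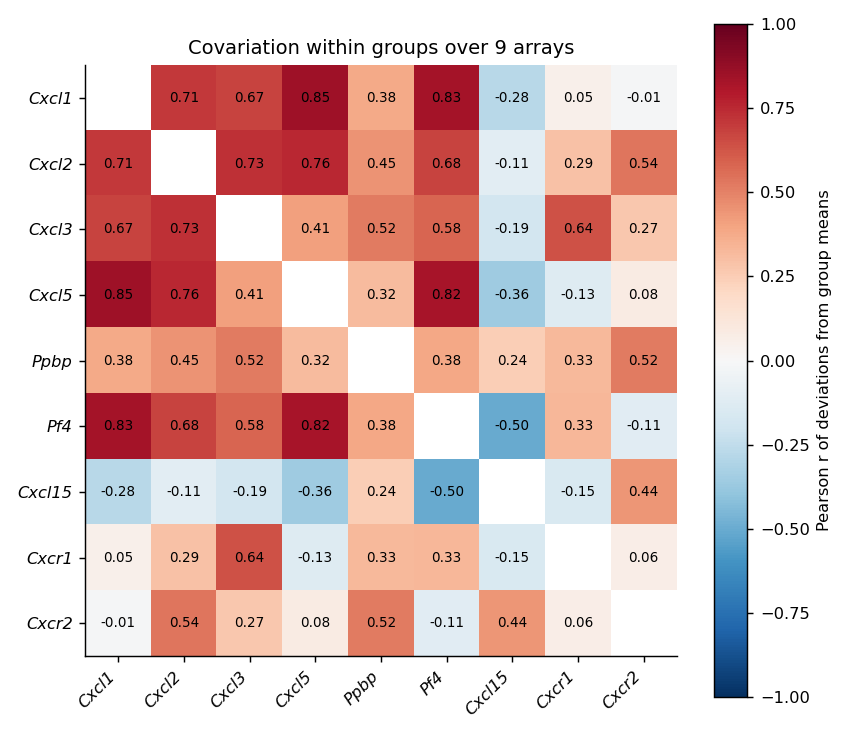
Pearson r over the 9 arrays between deviations from group means, for the 36 pairs of members. All pairs among Cxcl1, Cxcl2, Cxcl5 and Pf4 lie between 0.68 and 0.85, and Cxcl15 is mostly negative.

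Of 9747 genes whose mean lay at or above the median gene's, the 5 with the most similar deviations to Cxcl2 were Txn1, Ccl3, Bicc1, Lcp1 and Trem1, with r of 0.99, 0.98, 0.97, 0.97 and 0.97 and a Spearman rho of 0.97 for each over 9 arrays. They were picked as the highest, so these values are a description. Ccl3, a chemokine of myeloid cells, was at a mean of 12.28 with stretch and 9.22 without (log2 change 3.06, limma adjusted p = 0.15). Trem1, an activating receptor of neutrophils and monocytes, had a log2 change of 2.63 (limma adjusted p = 0.16), and Txn1, thioredoxin, one of 0.84 (0.19). For Cxcr2 the 5 genes were Wipf3, Zpr1, Ercc8, Resf1 and Ccdc181, with r from 0.93 to 0.97 and log2 changes from -0.23 to 0.42.

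Among the cytokines and receptors known to induce these ligands, 11 of 11 measured members had a positive difference, with a median of 0.95, and 0 passed at 0.05. The largest were Il6 (log2 change 4.19, limma adjusted p = 0.076) and Il1b (3.71, 0.070), both named in the title of the series. Il17a, which acts on keratinocytes to raise the ligands, had a log2 change of 0.12. Its means were low, at 4.57 with stretch and 4.45 without, where a difference can be understated. Those of Csf2 (3.16 and 2.98) and Il17f (4.01 and 3.67) were low as well. NF-kB subunits and regulators of ligand transcripts had 9 of 14 positive differences and a median of 0.18, with 0 calls. Within this list Cebpb, a transcription factor of the IL-6 and IL-17 response, had a change of 0.82, and Tnfaip3, a feedback inhibitor of NF-kB, one of 1.19.

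Downstream of the receptor, 15 of 18 measured signalling genes had a positive difference (median 0.33, 0 calls). The smallest p-values belonged to the myeloid kinase gene Fgr (log2 change 1.35, limma adjusted p = 0.14) and to Pik3cg, the kinase activated by G-protein subunits (1.08, 0.24). Genes of neutrophil production and release had 8 of 12 positive differences and a median of 0.81, with 0 calls. In this list Csf3, the neutrophil growth factor G-CSF, had a change of 1.00 (limma adjusted p = 0.12) and Icam1, an adhesion molecule that neutrophils bind, one of 0.59 (0.17).

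The CXC chemokines that act on other receptors had 7 of 8 positive differences and a median log2 change of 0.87, with 0 calls. Cxcl14, a chemokine of resting epithelium, was the closest to the threshold (log2 change 2.20, limma adjusted p = 0.080). The ligand of Cxcr4, Cxcl12, had a change of 1.47 and Cxcr4 itself one of 1.35. The other CXC and atypical receptors had 3 of 8 positive differences and a median of -0.13, with 0 calls. Ackr1, the vascular receptor that binds and transports CXCR2 ligands without G-protein signalling, had a log2 change of -0.81 (limma adjusted p = 0.29).

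The skin itself was recognisable on all arrays: the keratins Krt5 and Krt14 had mean log2 values of 17.40 and 19.53 with stretch and 17.48 and 18.97 without. Keratinocyte markers had 4 of 11 positive differences (median -0.079) and blood endothelial markers 7 of 8 (median 0.40), with 0 calls in both lists. The keratinocyte cadherin gene Dsg3 had a log2 change of 0.97 (limma adjusted p = 0.22), and of the endothelial receptor genes Tek had one of -0.84 (0.078) and Kdr one of 0.78 (0.33). Mast cell markers had 2 of 8 positive differences and a median of -0.094. Their mean level ran from 5.24 to 5.53 with stretch and from 5.66 to 5.78 without. The mast cell protease genes Cpa3 and Mcpt4 had log2 changes of -1.35 (limma adjusted p = 0.084) and -0.91 (0.27). Fibroblast markers had 0 of 7 positive differences and a median of -0.82. Their mean level ran from 14.54 to 15.04 with stretch and from 15.54 to 15.84 without, and Dpt, dermatopontin, fell by 2.30 (limma adjusted p = 0.025), the only call in any list. The fibroblast list held 0 calls in 4 of the 9 fits that left out 1 array (stretch replicate 2, or no-stretch replicate 1, 2 or 3). The collagen gene Col1a2 had a log2 change of -0.82 (limma adjusted p = 0.077). Skeletal muscle markers had 2 of 8 positive differences, and their mean level overlapped between the groups; Actn3, a sarcomere protein gene, had a log2 change of 0.99 and Ckm, muscle creatine kinase, one of -0.81. The part of these markers in the ligand differences was not tested.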

How the data were processed

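The authors deposited 1 table of log2 values for 22206 features and 9 arrays. The submitters' processing notes name Transcriptome Analysis Console and RMA; the sources used here give no versions, filters or genome build. Samples were grouped by title. Gene names came from the platform annotation: 19572 features had 1 symbol and 2634 none, and the feature with the highest mean stood for each of 19505 genes. Differences (stretch minus no stretch) were tested on all genes in R 4.3.3 with limma 3.58.1 (lmFit, then eBayes; two-sided, without covariates) and adjusted by Benjamini-Hochberg. Array number limits the precision: the median standard error was 0.21. Correlations used exact permutation within groups (2880 arrangements). Members and lists were chosen with earlier results of these data known. Within each list the 2 genes of smallest p were named. List genes named beyond those, such as Il17a and Krt5, were chosen after their values were seen. Genes similar to Cxcl2 and Cxcr2 were the 5 of highest r outside the members. The chromosomal neighbours and both promoter stretches were added after the values were seen. Promoter sequences are RefSeq's, and 8 of 9 members matched. On simulated data with 200 changed genes, 2-fold changes, about the size of that of Cxcr2, were recovered in 44.5% of cases and 4-fold ones in 96.0%. The changed genes were drawn at random from all genes. Cxcl1, Cxcl2, Cxcl3 and Cxcl5 had standard errors of 0.58 to 1.04, above the median, so these percentages do not hold for them. Those of Cxcr2 (0.26), Ppbp (0.32) and Pf4 (0.59) were also above the median, so the percentages do not hold for these genes either. Alternatives covered scaling, filtering, features, variance model, array weights, replicate block, threshold and single arrays.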

Additional observations from a re-analysis of the deposited data

How the results depend on the processing

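Of 159 member changes recomputed under alternatives, 0 reversed and 145 kept their side of the threshold; 14 crossed below 0.05, all of Cxcl1, Cxcl2, Cxcl3 or Cxcl5. Members past the threshold numbered 0 with all arrays, 2 among genes above the median mean level, 1 with a variance trend, 2 with array weights and 4 at an adjusted p of 0.1. That filter leaves out Ppbp, Cxcl15 and Cxcr1. Genes past the threshold numbered 48 of 19505, and 75 after quantile normalization, 67 with a variance trend, 103 above the median mean level, 157 with array weights and 211 at 0.1. List genes past it numbered 1 (Dpt), and 3, 2, 6, 10 and 13 under these same settings in turn. Above the median mean level fewer genes were tested. The labels do not say whether same-numbered samples of the 2 groups were handled together. Over all genes, deviations of same-numbered samples correlated at -0.062, -0.018, 0.064 and 0.34. With the replicate block, 221 genes, 3 members (Cxcl1, Cxcl2 and Cxcl5) and 20 list genes passed. In that fit Cxcl2 had a standard error of 0.36, against 1.04 without the block, and limma adjusted p = 0.0029. Cxcl5 had limma adjusted p = 0.0075. Whether the block is warranted cannot be told from the labels. Leaving out single arrays gave 0 to 4 members, 2 to 195 genes (195 without stretch replicate 3, 75 without no-stretch replicate 4, and 2 without stretch replicate 2 or no-stretch replicate 3) and 0 to 14 list genes. The causes were not tested. No pair of members passed by Pearson or Spearman. Centring the arrays moved the median of all genes to 0.030, and every member kept its sign. Signal over background was not assessed, which among the members limits Ppbp, Cxcl15 and Cxcr1 most. It also limits list genes at low levels, such as Gp5, Treml1, Il17a, Mpo and Camp.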
